A study of Homo sapiens with 6 samples.

Results

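The genes described here are 54 components of the protein synthesis machinery, measured in SH-SY5Y human neuroblastoma cells. They were taken by gene name from a table of 32862 genes and comprise 33 initiation factors (names starting with EIF), 4 elongation factors (EEF) and 17 cytosolic aminoacyl-tRNA synthetases (names ending in ARS1). All 54 names were found. The tested group was 3 libraries labelled OTULIN KO, made from untreated cells of this line in which the deubiquitinase gene OTULIN had been disrupted with CRISPR-Cas9. They were set against 3 libraries of untreated wild-type (WT) cells of the same line. Whether the KO line is a single clone, and whether replicates were separate cultures, is not given in the sources used here. The p-values therefore rest on the spread among these 6 libraries alone, part of which may be technical.

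Initiation factors bring the initiator tRNA and the small ribosomal subunit to the start codon of an mRNA. In that process eIF2 carries the initiator tRNA, eIF2B recharges eIF2 with GTP, eIF3 holds the assembly together, and the eIF4 proteins bind the 5′ cap and unwind the leader. Elongation factors then deliver charged tRNAs and move the ribosome along, and the synthetases charge each tRNA with its amino acid. Many of these genes are known to be controlled as groups, through 5′ terminal pyrimidine tracts that respond to mTOR and through promoter elements that bind ATF4 during amino acid shortage.

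The libraries of the 2 genotypes differed in depth. The OTULIN KO libraries held 725827 to 862932 counts and 2306 to 2567 genes with a count, against 61772795 to 64352333 counts and 27453 to 27958 genes in WT. OTULIN itself had 0 counts in all 3 OTULIN KO libraries, against 1682, 2101 and 2155 counts in WT. Of the 10820 genes that averaged at least 1 FPKM (fragments per kilobase, scaled to library size), 71.3% had 0 counts in all 3 OTULIN KO libraries. A set of 4 loci inside 18S ribosomal RNA genes took 29.7%, 36.5% and 19.5% of the counts in OTULIN KO, against 0.823%, 0.438% and 0.463% in WT. Of 13 markers of SH-SY5Y cells, 6 had a count in OTULIN KO and all 13 exceeded 1 CPM (counts scaled to a common library total) in WT. Their summed level was 745 to 885 CPM in OTULIN KO and 7401 to 8284 CPM in WT, and those at 0 in OTULIN KO included PHOX2A, GATA3, TH, DBH, CHGA and CHGB. Summed markers of other cells were 4.94 to 34.4 CPM in OTULIN KO against 8.9 to 27.2 in WT for epithelium (5 of 6 with a count in OTULIN KO, KRT8 at 0), 0 to 6.89 against 1.51 to 2.59 for blood (2 of 5 in the table, CD68, CD14 and LAPTM5 at 0) and 46.4 to 134 against 122 to 130 for fibroblasts (4 of 6, DCN and LUM at 0). The part of depth, of these loci and of these markers in the values below was not tested. In RNA of a whole culture, fewer cells of a type and less of an RNA per cell cannot be told apart.

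A few initiation factors were higher in OTULIN KO and all other members were lower. EIF4G2, EIF5A, EIF1, EIF4A2, EIF5 and EIF4E passed the test in the upward direction (6 of 33 initiation factors, 18.2%), where 7.63% of all genes tested did so. The other 27 initiation factors, the 4 elongation factors and the 17 synthetases fell, and 88.0% of all genes tested were called lower. The test was edgeR's quasi-likelihood test over 10820 genes, with calls at a Benjamini-Hochberg adjusted p under 0.05, and it called 95.6% of those genes in either direction. Its log2 changes use TMM factors, while CPM folds use library totals. The median log2 change of the 1496 genes with at least 30 counts in OTULIN KO was 0.57 with TMM factors, 0.96 with library totals and 0.01 with median-ratio scaling, and changes near that shift depend on the scaling. For all 54 members the CPM of the OTULIN KO and WT libraries did not overlap, which was also the case for 96.2% of all genes tested. All 54 passed the filter on low values, but 43 of them averaged under 1 FPKM in OTULIN KO and passed through WT alone, so their difference was fixed by the filter and is given as a description.

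Many members had no count at all in OTULIN KO. There were 26 of 54 members (48.1%) at 0 in all 3 OTULIN KO libraries, made up of 13 initiation factors, 2 elongation factors and 11 synthetases, beside 71.3% of all genes tested. A further 13 members had counts in 1 OTULIN KO library and 5 in 2, beside 14.8% of genes tested in 1 or 2, and 10 members had counts in all 3, beside 13.9%. There were 11 members (20.4%) with at least 30 counts over the OTULIN KO libraries together, beside 13.8% of genes tested, and 9 of these 11 were initiation factors. The median fitted log2 change was -7.80 over the initiation factors, -11.67 over the elongation factors and -15.10 over the synthetases, beside -12.42 over all genes tested. For a gene at 0 in OTULIN KO the fitted change follows its WT level and is no measured fold. The synthetase median is of this kind, so the order of the medians does not rank the groups. These medians moved with 1 library and with the test, since the initiation median was -12.58 without OTULIN KO replicate 1, the elongation median was -16.3 without OTULIN KO replicate 3, and limma on log2(FPKM + 1) gave -4.39, -6.91 and -4.38. Genes at 0 in OTULIN KO were also given the ratio of a floor of 3 counts over that group (1.25 CPM) to their mean WT CPM. That ratio uses library totals, and other genes kept their edgeR value. The medians were then -6.33, -7.51 and -7.08, beside -4.61 over all genes tested. For a gene at 0 such a value reflects its WT level alone, so these medians do not compare the size of the fall.

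**Figure D1:**
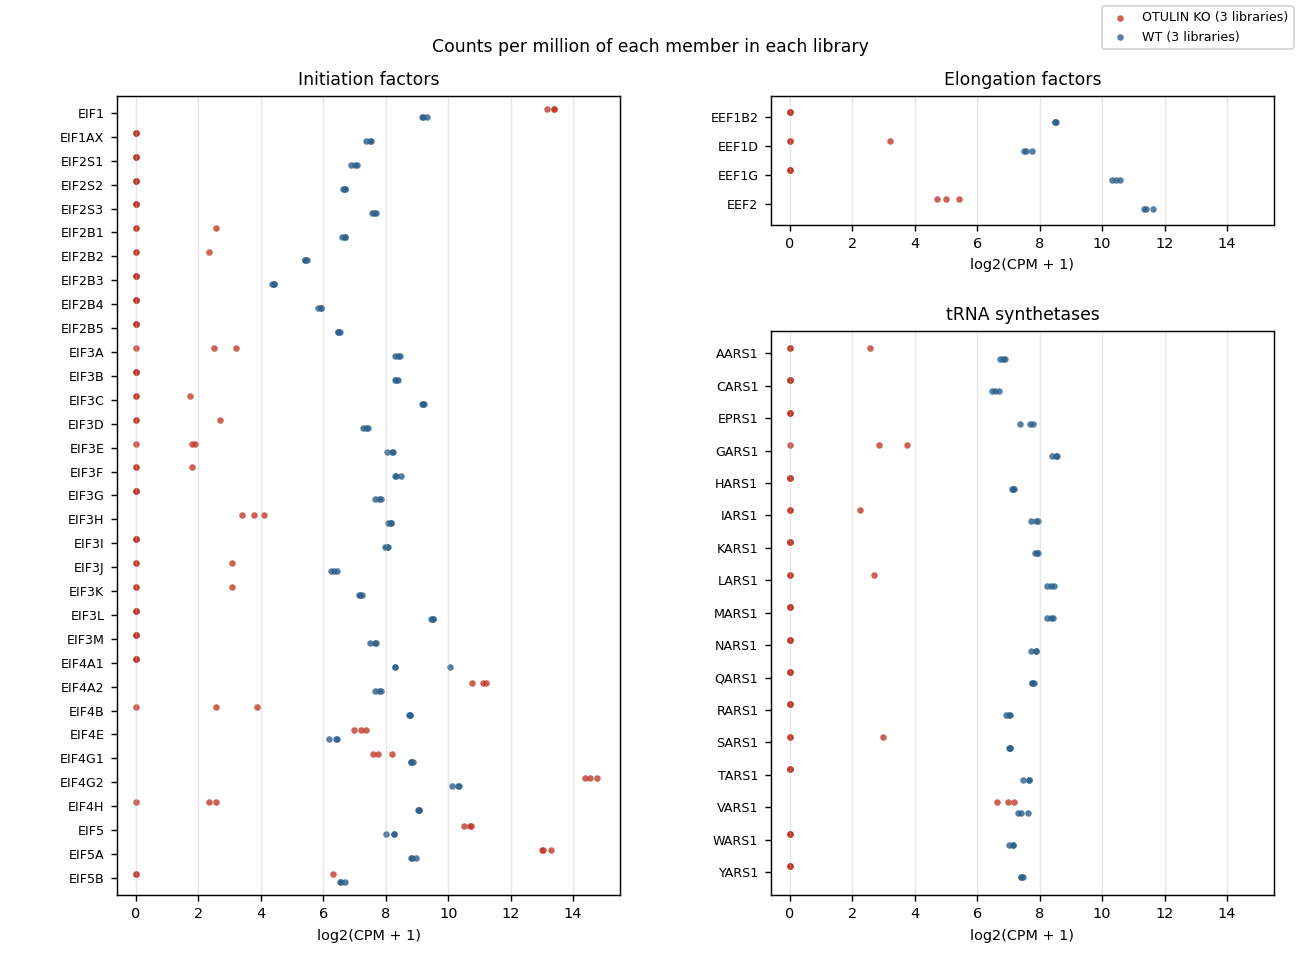
Level of each of the 54 members in each library, as log2(CPM + 1) on the horizontal axis, with OTULIN KO points (3 libraries) above WT points (3 libraries) in each row and genes without a count at 0. EIF1, EIF4A2, EIF4E, EIF4G2, EIF5 and EIF5A lie to the right of their WT points, and 26 members have all OTULIN KO points at 0.

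Grouped by name, the initiation factors took a larger share of the OTULIN KO libraries than of WT, and the other groups a smaller one. Initiation factor counts made up 4.71%, 4.22% and 5.31% of the OTULIN KO libraries, against 0.936%, 1.03% and 0.966% of the WT libraries (means 4.75 ± 0.54% and 0.979 ± 0.051%, SD, n = 3). That 4.85-fold difference rested on EIF4G2, EIF1 and EIF5A, which together held 91.2 ± 0.38% of the initiation factor counts in OTULIN KO and 23.5 ± 0.99% in WT (SD, n = 3 each). Without these 3 genes the direction turned, with 0.432%, 0.356% and 0.46% in OTULIN KO against 0.713%, 0.804% and 0.733% in WT. In summed FPKM, all 33 initiation factors made up 2.08% in OTULIN KO and 0.571% in WT. Elongation factors made up 0.00353 ± 0.0013% of the OTULIN KO libraries and 0.477 ± 0.022% of the WT libraries (SD, n = 3 each), 135-fold lower, but 0.151% and 0.509% when a read-through row over EEF1G was added. EEF1A1, an elongation factor that is not a member, is left out of this share. It stood at 5372 CPM in OTULIN KO and 9218 CPM in WT, so the 135-fold difference holds for the 4 members alone. EIF5A, counted with the initiation factors by its name, helps ribosomes through difficult peptide bonds. It stood at 8841 CPM in OTULIN KO and 467 CPM in WT. Counted with the elongation factors instead, EIF5A would turn the direction of their share. Synthetases made up 0.0136 ± 0.0028% in OTULIN KO and 0.34 ± 0.016% in WT (SD, n = 3 each), a 25-fold difference. Each of these shares separated the genotypes without overlap, at an exact two-sided permutation p of 0.1, which is the smallest that 3 against 3 libraries allow.

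**Figure D2:**
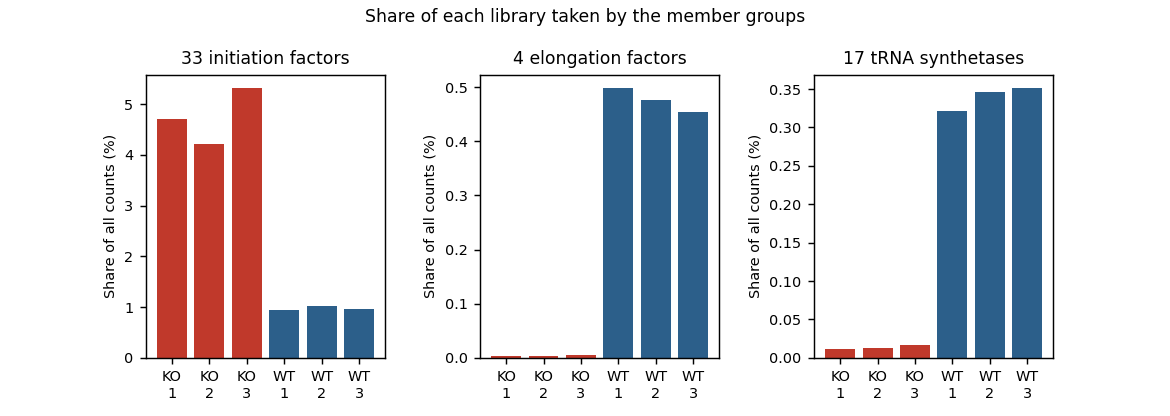
Percentage of all counts of each library that fell in the 33 initiation factors, the 4 elongation factors and the 17 tRNA synthetases, 1 bar per library and a separate vertical scale per panel. The OTULIN KO bars stand between 4.22% and 5.31% for initiation factors, against 0.936% to 1.03% in WT, and close to the axis in the other panels.

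EIF4G2 was the most abundant member in OTULIN KO. It encodes DAP5, a relative of the eIF4G scaffold that lacks the part that binds eIF4E and serves non-canonical initiation (chr11:10797050-10808940, minus strand, hg38). It had 19098, 18417 and 20123 counts in OTULIN KO, against 68797, 82287 and 80484 counts in the far deeper WT libraries. Scaled to library totals this was 24219 ± 3237 CPM in OTULIN KO and 1229 ± 107 CPM in WT (SD, n = 3 each), 19.7-fold higher, and every OTULIN KO library lay above every WT library. The fitted log2 change was 3.90 (SE 0.10, adjusted p = 1.3e-06, edgeR). EIF4G2 alone held 50.9 ± 1.2% of initiation factor counts in OTULIN KO and 12.6 ± 0.86% in WT (SD, n = 3 each).

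EIF1 and EIF5A followed at similar folds. EIF1, which keeps the scanning ribosome from starting at wrong codons (chr17:41688885-41692668, plus strand), had 8743, 7911 and 7851 counts in OTULIN KO, against 39574, 37507 and 35552 in WT. Its CPM was 17.2-fold higher in OTULIN KO, with a log2 change of 3.70 (SE 0.07, adjusted p = 8.2e-07, edgeR). EIF5A, the hypusine-bearing factor that helps ribosomes through difficult peptide bonds (chr17:7306999-7312463, plus strand), had 6831, 7050 and 7197 counts in OTULIN KO, against 30783, 28928 and 28134 in WT. Its CPM was 18.9-fold higher, with a log2 change of 3.85 (SE 0.09, adjusted p = 1.1e-06, edgeR). For both genes the 3 OTULIN KO libraries sat close together, at 10261 ± 947 CPM for EIF1 and 8841 ± 940 CPM for EIF5A in OTULIN KO, against 598 ± 33 and 467 ± 25 CPM in WT (SD, n = 3 each). GPS2, on the opposite strand over EIF5A, had 0 counts in OTULIN KO against 5987, 5936 and 5238 in WT, and whether counting used strand is not given in the sources used here.

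EIF4A2 and EIF5 were higher by smaller folds, and EIF4E by less still. EIF4A2, a DEAD-box RNA helicase of the cap-binding complex, had 1774, 1497 and 1733 counts in OTULIN KO, against 12356, 14184 and 14057 in WT, 9.76-fold higher in CPM (log2 change 2.88, SE 0.11, adjusted p = 5.3e-06, edgeR). EIF5, which triggers GTP hydrolysis by eIF2 at the start codon, had 1345, 1262 and 1238 counts in OTULIN KO, against 15917, 19566 and 19058 in WT, 5.56-fold higher (log2 change 2.08, SE 0.10, adjusted p = 1.2e-05, edgeR). EIF4E, the cap-binding protein, had 101, 126 and 120 counts in OTULIN KO, against 4472, 5589 and 5234 in WT, 1.79-fold higher. Its log2 change of 0.45 (SE 0.14, adjusted p = 0.018, edgeR) was no longer called without OTULIN KO replicate 2 or without WT replicate 1 or 3, and it was -0.11 with median-ratio scaling and with DESeq2. The direction of EIF4E thus depends on the scaling.

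Of these 6 genes, EIF4E and EIF5A had copies with at least 30 counts over the OTULIN KO libraries. EIF4EP2, a processed copy of EIF4E on chromosome 17, had 151, 157 and 159 counts in OTULIN KO, against 633, 753 and 679 in WT. Its own log2 change was 3.76 (SE 0.09, adjusted p = 1.2e-06, edgeR). With copies added to the gene, EIF4E stood at 342 ± 38 CPM in OTULIN KO and 92.2 ± 8.8 CPM in WT (SD, n = 3 each), and its log2 change was 1.5. Of the copies of EIF5A, EIF5AP4 had 46, 44 and 41 counts in OTULIN KO against 444, 414 and 331 in WT, and EIF5AL1 had 58, 29 and 46 against 636, 515 and 462. These added little to EIF5A, whose log2 change with copies was 3.82. Reads of a gene and its near-identical copy can be split between their rows, so single rows of such pairs are uncertain.

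The remaining eIF4 proteins were lower in OTULIN KO. EIF4G1, the scaffold of the cap-binding complex, had 236, 167 and 155 counts in OTULIN KO, against 28869, 28952 and 27435 in WT. This was 1.94-fold lower in CPM (log2 change -1.36, SE 0.14, adjusted p = 8.1e-05, edgeR), so the canonical scaffold fell while its relative EIF4G2 rose. EIF4B and EIF4H, which stimulate the helicase, were close to the floor. EIF4B had 4, 0 and 10 counts in OTULIN KO against 26351, 28221 and 27188 in WT, 69.6-fold lower, which was 176-fold without OTULIN KO replicate 3 and 46.4-fold without replicate 2. EIF4H had 4, 0 and 3 counts in OTULIN KO against 32857, 34507 and 32967 in WT, 176-fold lower, with 117-fold to 258-fold when a library of OTULIN KO was left out.

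The helicase pair EIF4A1 and EIF4A2 moved in opposite directions. EIF4A1 had 0 counts in all OTULIN KO libraries, against 19353, 68253 and 19494 in WT, at least 450-fold lower, or at least 250-fold without WT replicate 2. EIF4A1 thus held 0 of 5004 pair counts in OTULIN KO, which allows a share of up to 0.06% by counting error, against 61.0%, 82.8% and 58.1% of the pair in WT (exact two-sided permutation p = 0.1, the smallest possible). The overlapping read-through row SENP3-EIF4A1 was high where EIF4A1 was low, with 52720, 5901 and 56313 counts in WT, and it had 0 in OTULIN KO. EIF4A1 and this row together had 72073, 74154 and 75807 counts in WT, and the pair share became 85.4%, 83.9% and 84.4%. The absence of counts in OTULIN KO held for both rows.

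The eIF2 and eIF2B subunits were at or near 0 in OTULIN KO, where 71.3% of all genes tested were at 0. EIF2S1, the alpha subunit that stress kinases phosphorylate, EIF2S2 and EIF2S3, the subunit that binds GTP and the initiator tRNA, had 0 counts in all OTULIN KO libraries, against 7282 to 8288, 6040 to 6559 and 11664 to 13179 counts in WT. At the WT share, each OTULIN KO library would have held at least 91.9, 72.9 and 142 counts of them. Of the 5 subunits of eIF2B, EIF2B3, EIF2B4 and EIF2B5, the catalytic subunit, had 0 counts in OTULIN KO and were at least 16-fold, 46.8-fold and 71.3-fold lower. EIF2B1 had 4, 0 and 0 counts in OTULIN KO against 5958, 6548 and 6305 in WT. EIF2B2 had 0, 0 and 3 counts in OTULIN KO against 2591, 2697 and 2689 in WT, a pooled ratio of 33.9-fold lower with a 95% exact Poisson interval of 11.6 to 164.

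A pseudogene of EIF2S2 went the other way. EIF2S2P4, a processed copy (chr2:170751805-170752788, plus strand), gave 1236, 1233 and 1431 counts in OTULIN KO, against 346, 288 and 326 in WT. This was 1642 ± 289 CPM in OTULIN KO and 5.1 ± 0.56 CPM in WT (SD, n = 3 each), 322-fold higher, with a log2 change of 7.93 (SE 0.18, adjusted p = 1.1e-06, edgeR). With copies added, the EIF2S2 sequence as a whole stood at 1527, 1431 and 1974 CPM in OTULIN KO, against 107, 106 and 103 CPM in WT. The log2 change then turned to 3.56 (SE 0.13, adjusted p = 4.4e-06, edgeR), so the direction of EIF2S2 depends on which rows are counted. RALY, on the opposite strand over EIF2S2, had 0, 4 and 0 counts in OTULIN KO against 15788, 14875 and 14432 in WT.

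**Figure D3:**
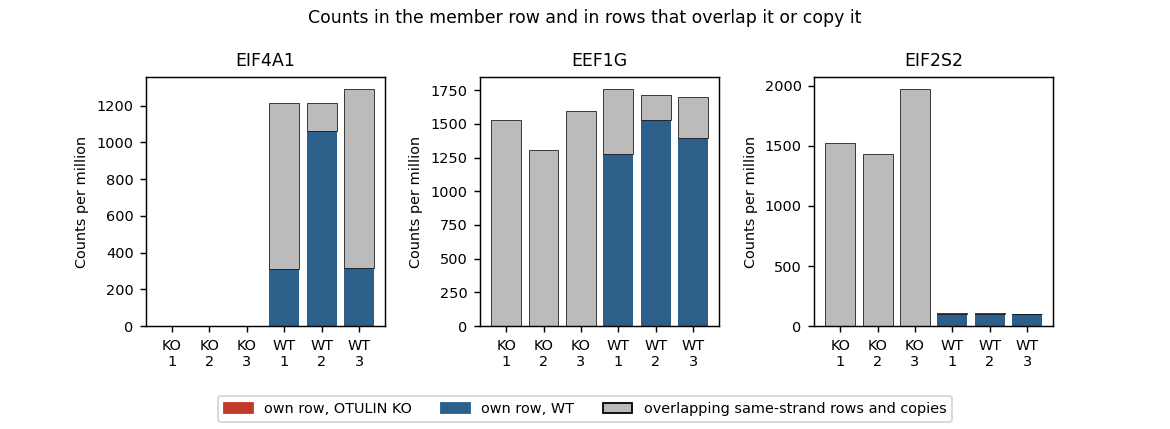
CPM of EIF4A1, EEF1G and EIF2S2 in each library, with the gene's own row in red (OTULIN KO) or blue (WT) and rows that overlap it on the same strand or copy it in grey. All OTULIN KO signal of EEF1G and EIF2S2 is in grey, up to 1593 and 1974 CPM, and EIF4A1 has none.

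All 13 subunits of eIF3 were lower in OTULIN KO, as were 88.0% of all genes tested. Of the 13, 5 (38.5%) were at 0 there, beside 71.3% of all genes tested. In OTULIN KO 12 of them averaged under 1 FPKM and passed the filter through WT alone. EIF3B, EIF3G, EIF3I, EIF3L and EIF3M had 0 counts there, and EIF3L, which had 43624, 46766 and 44772 counts in WT, was at least 574-fold lower. EIF3G had 14273, 14078 and 12276 counts in WT and was at least 172-fold lower. The subunit with most counts in OTULIN KO was EIF3H, with 13, 11 and 7 against 16825, 18338 and 17911 in WT, 22-fold lower (log2 change -4.84, SE 0.17, adjusted p = 4.4e-06, edgeR). EIF3H had a count in each OTULIN KO library, and no other eIF3 subunit did.

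The other 7 eIF3 subunits had a few counts in 1 or 2 OTULIN KO libraries. EIF3A, the large scaffold subunit, had 0, 4 and 6 counts in OTULIN KO against 19717, 21812 and 21706 in WT. EIF3E had 2, 0 and 2 against 16193, 19394 and 18061. EIF3D, a subunit that can itself bind the cap of some mRNAs, had 0, 0 and 4 against 9651, 10558 and 10671. These values are near the count limit of the OTULIN KO libraries and cannot be ranked. EIF3J, a loosely bound subunit, had 6, 0 and 0 counts in OTULIN KO against 4719, 5144 and 5332 in WT, and EIF3K had 6, 0 and 0 against 9302, 9288 and 8794. EIF3C had 0, 2 and 0 counts in OTULIN KO against 37465, 36893 and 36266 in WT, and EIF3F had 2, 0 and 0 against 22137, 20033 and 19981. Their pooled ratios were 704-fold lower (95% exact Poisson interval 195 to 5816) for EIF3C and 396-fold lower (110 to 3268) for EIF3F. EIF3CL, a near-identical copy of EIF3C, had 0 counts in OTULIN KO against 34750, 33766 and 30571 in WT, so neither row of that pair carried signal in OTULIN KO beyond 2 counts.

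The remaining initiation factors were EIF1AX and EIF5B. EIF1AX, the scanning partner of EIF1, had 0 counts in OTULIN KO against 10254, 11741 and 11020 in WT, at least 140-fold lower, so these partners went in opposite directions. EIF5B, which joins the ribosomal subunits, had 0, 0 and 57 counts in OTULIN KO against 5740, 6057 and 6389 in WT. Its log2 change of -2.40 (SE 0.85, adjusted p = 0.031, edgeR) rested on the third library, without which EIF5B was at 0 in OTULIN KO. The call was lost with DESeq2 (adjusted p = 0.21), with limma on log2(FPKM + 1) (adjusted p = 0.052) and with library totals (adjusted p = 0.064).

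All 4 elongation factor members fell in OTULIN KO, as did 88.0% of all genes tested, and 3 of them passed the filter through WT alone. EEF2, the GTPase that moves the ribosome along the mRNA (chr19:3976056-3985463, minus strand), was the most counted member in WT. It had 25, 22 and 30 counts in OTULIN KO, against 194947, 173335 and 161206 in WT. Its level was 32.6 ± 8.1 CPM in OTULIN KO and 2812 ± 281 CPM in WT (SD, n = 3 each), 86.3-fold lower (log2 change -6.84, SE 0.17, adjusted p = 1.3e-06, edgeR). EEF1B2, EEF1D and EEF1G form the exchange complex that recharges eEF1A with GTP. EEF1B2 had 0 counts in OTULIN KO against 22460, 23081 and 22520 in WT, at least 289-fold lower. EEF1D had 0, 0 and 6 counts in OTULIN KO against 13333, 12178 and 11081 in WT, 70.5-fold lower, which was 47-fold without OTULIN KO replicate 1 or 2, and it was at 0 there without replicate 3.

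EEF1G depended on which row held its reads. The EEF1G row had 0 counts in all OTULIN KO libraries, against 79329, 98320 and 86138 in WT, at least 1119-fold lower. A read-through row on the same strand, which spans EEF1G and the neighbouring gene TUT1 (chr11:62559603-62591531, minus strand), had 1235, 1124 and 1156 counts in OTULIN KO, against 30019, 12066 and 19019 in WT. TUT1 itself had 0 counts in OTULIN KO. With the read-through row and 2 copies added, EEF1G stood at 1474 ± 152 CPM in OTULIN KO and 1725 ± 29 CPM in WT (SD, n = 3 each). It was then 1.17-fold lower (log2 change -0.62, SE 0.06, adjusted p = 6.9e-05, edgeR), against at least 1119-fold on its own row.

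All 17 synthetases were lower in OTULIN KO, as were 88.0% of all genes tested. Of the 17, 11 (64.7%) had 0 counts there, beside 71.3% of all genes tested. In OTULIN KO 16 of them averaged under 1 FPKM and passed the filter through WT alone. VARS1, which charges valine tRNA and binds the eEF1 complex (chr6:31777518-31795752, minus strand), stood apart, with 80, 109 and 104 counts in OTULIN KO against 12155, 10727 and 9761 in WT. It was 1.41-fold lower in CPM (log2 change -0.89, SE 0.18, adjusted p = 0.0024, edgeR). VARS1 alone held 90.7 ± 8.1% of the synthetase counts in OTULIN KO and 5.13 ± 0.83% in WT (SD, n = 3 each). The next was GARS1, which charges glycine tRNA in cytosol and mitochondria, with 5, 0 and 9 counts in OTULIN KO against 20802, 24282 and 22751 in WT. It was 58.1-fold lower, which was 117-fold without OTULIN KO replicate 3 and 38.8-fold without replicate 2.

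Of the 7 synthetases of the multisynthetase complex, EPRS1, KARS1, MARS1, QARS1 and RARS1 had 0 counts in OTULIN KO. KARS1, for lysine, had 14278, 15547 and 15132 counts in WT and was at least 191-fold lower. QARS1, for glutamine, had 13875, 13942 and 13181 in WT and was at least 174-fold lower. LARS1, for leucine, had 0, 0 and 4 counts in OTULIN KO against 18580, 21036 and 21542 in WT. IARS1, for isoleucine, had 3, 0 and 0 against 13046, 15245 and 15106, a pooled ratio of 184-fold lower (95% exact Poisson interval 63.0 to 893). Among the 10 other synthetases 6 had 0 counts, among them NARS1 for asparagine, at least 181-fold lower, and CARS1 for cysteine, at least 75.8-fold lower. AARS1, for alanine, had 4, 0 and 0 counts in OTULIN KO against 6591, 7204 and 7197 in WT, and SARS1, for serine, had 0, 0 and 5 against 8059, 8554 and 8092. All 7 members of the complex and all 10 other synthetases were called lower, as were 88.0% of all genes tested.

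Among the 14 synthetases with a promoter sequence, 6 shared an 8-base element, which lay close to the start site in 5 of them. The sequences come from RefSeq (GRCh38.p14, 250 bases before to 50 after each start), where 44 of the 54 members were matched and EIF2S2, EIF3A, EIF3E, EIF3G, EIF3H, EIF3L, EEF1D, LARS1, VARS1 and YARS1 are named only. The element searched was TGATGNAA on both strands, the core that ATF4 and C/EBP proteins are known to bind in genes of the amino acid response. It was in 6 of 14 synthetase windows (42.9%), in 0 of 27 initiation factor windows and 0 of 3 elongation factor windows, and in 3.62% of all 35116 windows of this length. Counted from 0 at the start base, it began at 2 in TARS1, 14 in NARS1, -2 in CARS1, -4 in MARS1, -13 in IARS1 and -187 in AARS1. The 6 sites are shown because 5 of these genes carry the element within 20 bases of the start. All 6 genes were lower in OTULIN KO and passed the filter through WT alone. Lower too were the other synthetases, 32 of the 38 matched members without the element and 88.0% of all genes tested. Whether the element bears on the change was not tested. Each line gives 30 bases on the gene's strand, with the element in capitals.
TARS1: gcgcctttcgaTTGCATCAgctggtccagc
NARS1: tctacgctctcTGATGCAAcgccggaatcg
CARS1: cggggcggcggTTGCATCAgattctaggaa
MARS1: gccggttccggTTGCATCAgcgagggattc
IARS1: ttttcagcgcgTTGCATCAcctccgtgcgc
AARS1: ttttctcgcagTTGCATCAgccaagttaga
These lie at chr5:33440956-33440985, chr18:57621804-57621833, chr11:3057407-3057436, chr12:57488053-57488082, chr9:92293692-92293721 and chr16:70289675-70289704. The element was on the minus strand of the gene in all but NARS1, and its open base was C in each. Of these 6 genes 4 had 0 counts in OTULIN KO, beside 11 of all 17 synthetases and 71.3% of genes tested, and IARS1 and AARS1 had 3 and 4 counts over the 3 libraries.

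A pyrimidine run at the start site was found among factors and synthetases alike. The motif searched was CTNNN, with each N a C or a T, on the sense strand, beginning within 5 bases of the start, the letters by which 5′ terminal pyrimidine mRNAs begin. Overlapping matches were joined. It was in 13 of 44 member windows (29.5%), in 9 of 27 initiation factors (33.3%), 5 of 8 eIF3 subunits (62.5%), 1 of 3 elongation factors and 3 of 14 synthetases (21.4%), against 15.3% of all windows. On the antisense strand it was in 13.6% of member windows and 13.2% of all windows. Of the 13 members with the motif 2 rose and 11 fell, and of the 31 without it 4 rose and 27 fell. The lines below set 4 genes that carry the motif and were lower in OTULIN KO beside the 4 highest. The 4 lower genes were picked from the 11 that fell with the motif, while 27 fell without it. How many of the printed genes carry the motif is therefore no result. Each line gives 10 bases before and 20 from the start on the gene's strand, with the pyrimidine match in capitals.
EEF2: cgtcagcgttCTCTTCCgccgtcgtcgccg
EIF3D: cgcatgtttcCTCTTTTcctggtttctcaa
EIF3F: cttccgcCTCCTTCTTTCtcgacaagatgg
EIF3K: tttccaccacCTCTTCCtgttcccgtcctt
EIF4A2: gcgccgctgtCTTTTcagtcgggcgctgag
EIF4G2: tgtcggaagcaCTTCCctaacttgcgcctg
EIF1: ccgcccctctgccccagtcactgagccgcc
EIF5A: tgggaacccgaccacactagcgcgctagaa
The windows are chr19:3985444-3985473, chr22:36529147-36529176, chr11:7987327-7987356, chr19:38619178-38619207, chr3:186783567-186783596, chr11:10807977-10808006, chr17:41688875-41688904 and chr17:7306989-7307018. EIF4A2 and EIF4G2 carry the motif and were higher in OTULIN KO, EIF1 and EIF5A were higher without it, and the first 4 genes carry it and were lower. A match or its absence in these letters is a description and says nothing of a factor.

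In WT, subunits of a complex stood at unlike RNA levels. Levels between genes are compared here as WT CPM per kilobase of the GENCODE v29 principal transcript, because the length implied by the deposited counts and FPKM exceeded that transcript 26.7-fold for EIF3E and 13.2-fold for EIF3F, with a median of 2.07-fold over the members. Among eIF3 subunits EIF3L was highest, at 343 ± 6.8 CPM per kilobase, and EIF3J lowest, at 31.4 ± 2.1 (SD, n = 3 WT libraries each). EIF3F followed at 263 ± 18. EIF3G at 196 ± 14, EIF3C at 187 ± 4.6, EIF3E at 184 ± 14, EIF3I at 179 ± 5.9 overlapped in spread, EIF3K at 168 ± 4.3 overlapped EIF3E, and reads of EIF3C can also fall on its copy EIF3CL. EIF3B at 106 ± 4.0 followed, then EIF3D at 76.1 ± 4.1 and EIF3H at 71.2 ± 2.6, which overlapped in spread, and EIF3A at 50.5 ± 2.6 and EIF3M at 38.8 ± 2.8. EIF3L, the highest of them in WT, was at 0 in OTULIN KO, while EIF3H had 31 counts there.

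In CPM per kilobase, subunits of eIF2 and eIF2B were lower in WT than most of eIF3. EIF2S3 stood at 68.5 ± 3.0 CPM per kilobase, EIF2S2 at 37.8 ± 0.87 and EIF2S1 at 28.2 ± 1.9 in WT. Of eIF2B, EIF2B1 stood at 40.3 ± 1.4, EIF2B5 at 33.6 ± 1.1, EIF2B4 at 32.6 ± 1.3, EIF2B3 at 12.1 ± 0.28 and EIF2B2 at 9.82 ± 0.24 (SD, n = 3 WT libraries each), and EIF2B5 and EIF2B4 overlapped in spread. Among the synthetases GARS1 was highest at 137 ± 8.6 and AARS1 lowest, at 32.1 ± 1.5. CARS1 at 35.3 ± 2.8 and EPRS1 at 39.0 ± 5.6 overlapped AARS1 in spread. In the authors' FPKM, the same eIF2, eIF2B and eIF3 subunits ran from 5.38 ± 0.13 for EIF2B3 to 153 ± 2.9 for EIF3L in WT, with EIF3E second lowest at 6.91 ± 0.52.

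**Figure D4:**
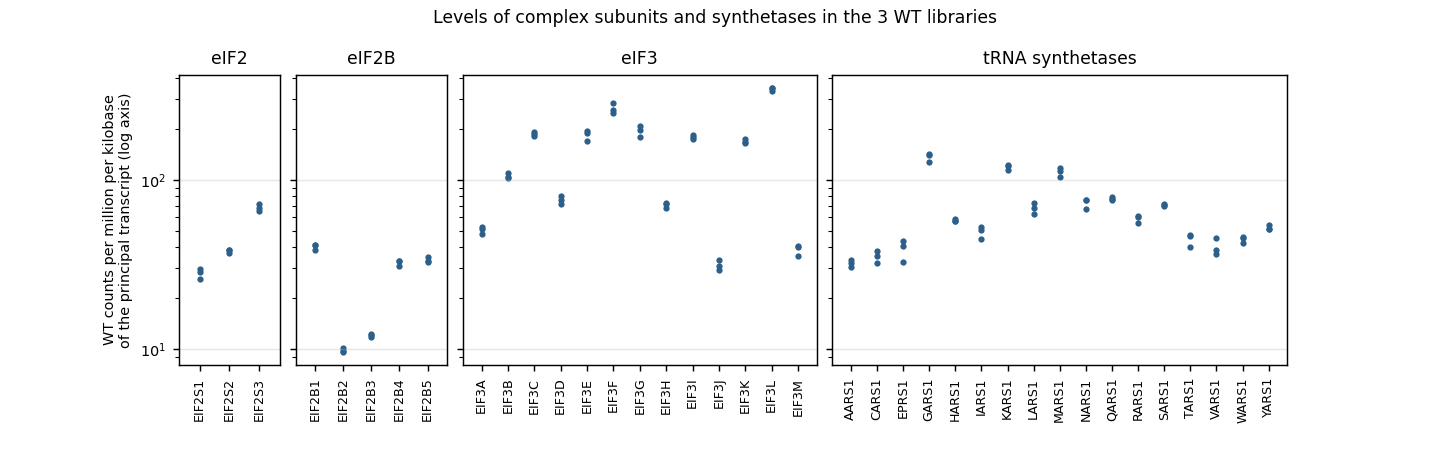
WT level of eIF2, eIF2B and eIF3 subunits and of the 17 synthetases as CPM per kilobase of the principal transcript, on a log axis, 1 point per WT library. EIF3L stands highest at 343 on average and EIF2B2 lowest at 9.82.

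A further 69 genes of translation were read from lists, of which 64 were tested. As background, 7.63% of all genes tested were called higher and 88.0% lower, and 50 of the 64 averaged under 1 FPKM in OTULIN KO, so the filter fixed their difference. Of 30 tested genes of initiation and its control 7 were higher and 23 lower, of 15 of elongation and termination 2 were higher and 13 lower, and none of 5 other cytosolic synthetases and cofactors or of 14 mitochondrial synthetases was higher, all of them but 1 having passed the filter through WT alone (edgeR, adjusted p under 0.05). The highest were DDX3X, a helicase of scanning, with a log2 change of 3.74 (SE 0.10, adjusted p = 1.9e-06), and PABPC1, the cytoplasmic poly(A)-binding protein, with 3.51 (SE 0.08, adjusted p = 1.1e-06). BZW2 and PAIP2, an inhibitor of poly(A)-binding protein, rose by 2.86 and 2.53. The release factors GSPT1 and ETF1 rose by 2.46 and 2.0. EIF4EBP2, which restrains EIF4E, and EEF1A2, the eEF1A of neurons and muscle, had 0 counts in OTULIN KO against 20584 to 21582 and 23820 to 28559 in WT, and DPH2, which helps modify EEF2, had 0 against 6416 to 6809.

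Among the partners of the members, EEF1A1 was lower by a small fold. EEF1A1, which brings charged tRNAs to the ribosome and is named here after its values were seen, had 4317, 3894 and 4552 counts in OTULIN KO against 559354, 600051 and 576782 in WT, 1.72-fold lower in CPM (log2 change -1.18, SE 0.08, adjusted p = 1.7e-05, edgeR). FARSA and FARSB, the subunits of the phenylalanine synthetase, had 0 counts in OTULIN KO against 10426 to 11910 and 3470 to 4229 in WT. All 14 tested mitochondrial synthetases, which passed the filter through WT alone, had 0 counts in OTULIN KO, as did 71.3% of all genes tested, among them IARS2 with 9874 to 10908 and RARS2 with 5057 to 5471 counts in WT.

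Of the 11 members with at least 30 counts in OTULIN KO, EIF4E changed sign between scalings and the other 10 kept their direction under edgeR with 3 scalings, DESeq2 and limma. The call of EIF5B was lost under several of them, as given above.

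**Figure D5:**
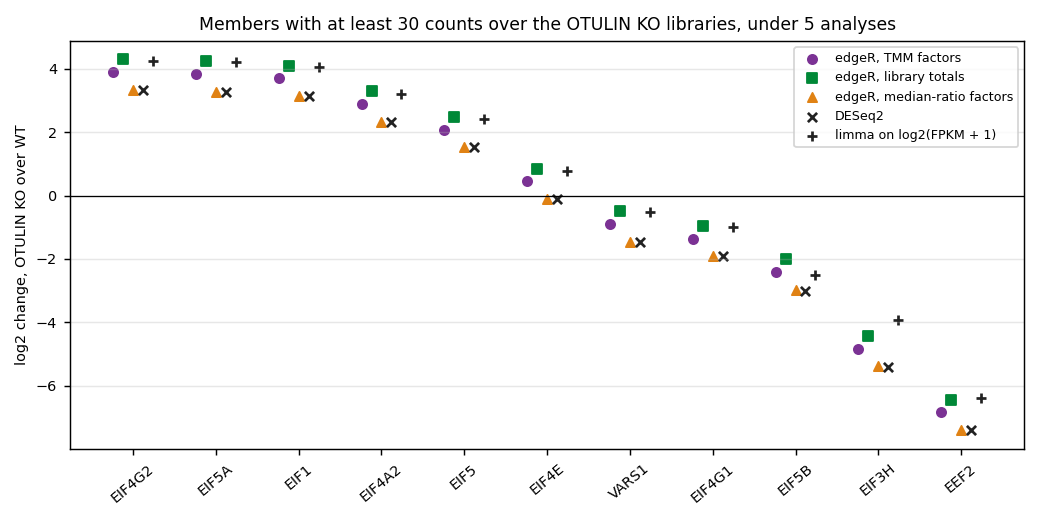
log2 change (OTULIN KO over WT) of the 11 members with at least 30 counts over the OTULIN KO libraries under edgeR with 3 scalings, DESeq2 and limma on log2(FPKM + 1). From EIF4G2 (3.90 with TMM factors) down to EIF5 the points lie above 0 in all 5, EIF4E straddles 0, and VARS1, EIF4G1, EIF5B, EIF3H and EEF2 lie below 0 in all 5.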

How the data were processed

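Poly(A)-selected RNA was sequenced from 3 OTULIN KO and 3 WT libraries, grouped by the genotype in the labels and all labelled batch 1. The authors deposited raw counts (whole numbers) for each gene. The deposited FPKM columns are the authors' own scaling of fragments to length and library, per the file headers. Tools listed without role in the submitters' processing notes are HISAT2 2.0.4, StringTie 1.3.4d, cutadapt 1.9 and DESeq2, on hg38. The sources used here give neither annotation release nor strandedness.

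edgeR 4.0.16 (R 4.3.3, glmQLFit and glmQLFTest, TMM factors, total counts as library sizes) was fitted on the 10820 of 32862 genes averaging 1 FPKM or more, with genotype as the only term and Benjamini-Hochberg adjustment over all of them. The SE of a log2 change is its size divided by the root of the F statistic. A gene's CPM uses the library total, and a fold is the ratio of 2 mean CPM. Where OTULIN KO was at 0, a fold was computed against 3 counts in the 2398362 of that group; intervals and floors cover counting error only. Shares were compared by an exact two-sided permutation test. The fit was tested on simulated data in which most genes were unchanged and the changed ones went evenly up and down. The libraries here are unlike that setting, with 95.6% of genes tested called and 71.3% at 0 in OTULIN KO. The simulation therefore does not show how the fit performs on them. Replicate pairs differed by a chi-square of 15.5 to 41.7 per degree of freedom, so none was 1 library counted again.

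Members with a count in OTULIN KO were named, and of members at 0 the 3 with most and the 1 with least WT FPKM per group; EIF2S1, EIF2S3, EIF1AX and other members at 0 were added for their place in a complex. Some genes that these rules take are not reported here. Of other lists, up to 4 higher and 2 lower genes of largest change were named, and copies with at least 30 counts in OTULIN KO. Members, lists and motifs were chosen with earlier results of these data known. Alternatives were no filter, at least 5 FPKM, median-ratio scaling, library totals, a replicate block, limma 3.58.1 with pseudocounts of 1 and 0.1, DESeq2 1.42.0 and leaving out each library. Added after seeing the data were summing overlapping same-strand rows (at least 5% of the member's WT counts) and copies, leaving out 18S loci, and leaving out EIF4G2, EIF1 and EIF5A. Other work used Python 3.11.15, pandas 2.3.3, numpy 2.4.6, scipy 1.17.1 and matplotlib 3.10.9.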

Additional observations from a re-analysis of the deposited data

How the results depend on the processing

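Of the 73 single genes compared, 71 or more kept direction and call under each scaling, other test and left-out library and without the filter, with EIF4E and EIF5B among the exceptions, and under the filter at 5 FPKM 64 did and 1 lost its call. EIF4E changed sign to -0.11 with median-ratio scaling and with DESeq2, and EIF2S2 to 3.56 with copies added. The initiation factor share turned to a difference of -0.334 percentage points without EIF4G2, EIF1 and EIF5A. The filter at 5 FPKM left 3851 genes and 28 other translation genes called lower, since it tests fewer genes. Replicate numbers did not pair the libraries (correlations of deviations of 0.016, -0.0262 and 0.0234 over 1496 genes). With the replicate block 52 of the 73 genes lost their call, the genes called were 452 higher and 289 lower, with 6 initiation factors, 2 elongation factors, 0 synthetases and 4 other translation genes lower (9519, 27, 4, 17 and 55 without it). Leaving out each library changed no other count by over 1.5 times. With 725827 to 862932 counts in OTULIN KO, 1 count is worth 1.16 to 1.38 CPM there, so members with few counts cannot be ranked.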
